A study of Homo sapiens with 6 samples.

Results

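The primary granule proteins of promyelocytes were followed through 10 genes, MPO, ELANE, PRTN3, AZU1, CTSG, LYZ, DEFA1, DEFA1B, DEFA3 and DEFA4, among 52992 genes to which the transcripts of the deposited tables could be assigned. They are classical contents of the azurophil granule and were chosen by name, and the choice was made with earlier results of these data known. The defensin copies DEFA1, DEFA1B and DEFA3 can hardly be told apart by short reads and were taken as one sum, which left 8 features. The data were RNA-seq of NB-4 cells, a human acute promyelocytic leukemia line, in 3 groups of 2 libraries that all carried a Cas9 vector and a doxycycline-inducible vector for a single-guide RNA and all received 1 µg/ml doxycycline for 7 days. Cells of the LacZ group carried a guide against the bacterial lacZ gene and had the genotype label WT. Cells of the sg1 and sg5 groups carried different guides against ARID1A, a DNA-binding subunit of the BAF chromatin remodelling complex, and had the genotype label ARID1A-deficient. The cells were a transduced population sorted for both vector markers, not single clones, and RNA was taken after a further culture without doxycycline. Nothing states that the 2 libraries of a group came from separate cultures, so the p-values below measure only the spread between these libraries, which may be technical.

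Primary granules, also called azurophil granules, are the first granules that a neutrophil precursor makes, and their proteins are synthesized almost entirely at the promyelocyte stage. MPO is the heme peroxidase that makes hypochlorous acid from hydrogen peroxide and chloride. ELANE, PRTN3 and CTSG are serine proteases that are stored active, AZU1 is a related protein without protease activity that binds bacterial surfaces, LYZ cuts the bacterial cell wall, and the DEFA genes encode small membrane-permeabilizing peptides. The transcription factors PU.1, C/EBP, RUNX1 and MYB are known for driving these genes in myeloid cells. The comparison of LacZ with the ARID1A guides addressed whether loss of ARID1A changes gene expression in promyelocytic leukemia cells.

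Positions are given for build GRCh38 by GENCODE 29. MPO is on the reverse strand of chromosome 17 (chr17:58269856-58280935), CTSG on the reverse strand of chromosome 14 (chr14:24573522-24576260) and LYZ on the forward strand of chromosome 12 (chr12:69348341-69354234). AZU1 (chr19:825097-832018), PRTN3 (chr19:840960-848175) and ELANE (chr19:851014-856247) follow each other on the forward strand of chromosome 19, with 8941 bases between AZU1 and PRTN3 and 2838 bases between PRTN3 and ELANE.

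Promoter sequences are shown for PRTN3, AZU1 and CTSG, the members that were matched in the promoter reference. They are the RefSeq windows of build GRCh38.p14, which run from 250 bases before to 50 after the RefSeq start and are shown 5′ to 3′ in the direction of the gene, up to the last base before the first exon of PRTN3-201, AZU1-201 and CTSG-201 in GENCODE 29. AZU1-202, which starts further upstream at position 825097, spans the AZU1 window, and the promoter of that transcript is not shown. They span chr19:840749-840959 for PRTN3, chr19:827587-827835 for AZU1 and chr14:24576261-24576500, reverse strand, for CTSG. Capitals mark matches, on either strand, to the letters GAGGAA of PU.1, TTNNGNAA of C/EBP and AACNGNC of MYB.
PRTN3: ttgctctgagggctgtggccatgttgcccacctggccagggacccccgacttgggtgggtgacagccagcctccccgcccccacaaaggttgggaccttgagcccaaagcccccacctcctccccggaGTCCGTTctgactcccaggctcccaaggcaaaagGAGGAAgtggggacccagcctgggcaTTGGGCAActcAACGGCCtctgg
AZU1: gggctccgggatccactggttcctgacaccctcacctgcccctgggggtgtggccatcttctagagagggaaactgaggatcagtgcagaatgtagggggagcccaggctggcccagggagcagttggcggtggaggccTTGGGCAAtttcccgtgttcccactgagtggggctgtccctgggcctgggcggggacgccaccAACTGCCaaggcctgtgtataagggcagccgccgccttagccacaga
CTSG: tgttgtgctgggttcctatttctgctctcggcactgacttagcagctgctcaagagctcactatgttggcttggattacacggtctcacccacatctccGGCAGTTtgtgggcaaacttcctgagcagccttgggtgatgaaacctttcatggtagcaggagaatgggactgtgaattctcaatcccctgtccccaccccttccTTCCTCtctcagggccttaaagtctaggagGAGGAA
PRTN3 and AZU1 held the same C/EBP match, TTGGGCAA, and each held an MYB match closer to the start. CTSG held 2 PU.1 matches in its window and PRTN3 held 1, while the AZU1 window held 0. The full CTSG window also held 1 C/EBP match and a second MYB match, both at or after the RefSeq start and so past the end of the sequence shown. Over the full windows, the letters TGTGGT of RUNX had 0 matches in all 3 genes. The letters AGATAA, which the erythroid factors of the GATA family bind, had 0 matches as well. Among 35116 promoter windows, the share with at least 1 match was 27.9% for PU.1, 36.8% for C/EBP, 32.2% for MYB, 13.1% for RUNX and 10.3% for GATA. The motifs can overlap one another, and a match is a run of letters, not a measured binding site.

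The libraries held between 46131178 and 54843745 estimated read counts, of which 95.4% to 95.5% fell on transcripts that could be assigned to a gene. On the first principal component of log2 CPM (counts scaled to the library total and TMM factors) of 18512 genes, which held 34.5% of the variance, sg1 replicate 1 (34.5) and sg5 replicate 2 (46.6) stood apart from the other 4 libraries, which lay between -30.2 and -11.5. The mRNA of ARID1A was 155 and 191 CPM in the LacZ libraries, 211 and 191 with sg1 and 124 and 145 with sg5. Editing at a guide site need not change the amount of mRNA, so these values do not check the labels. As the samples are bulk, fewer cells of a kind and less RNA per cell cannot be told apart.

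NB-4 cells expressed 7 of the 8 features, and the levels ran from 0.0353 to 7769 TPM (a transcript's share of all transcripts, scaled to a fixed total), which are corrected for transcript length and can be set side by side between genes. In LacZ libraries the order was MPO, PRTN3, AZU1, CTSG, LYZ, the DEFA1/1B/3 sum, DEFA4 and ELANE, and each feature lay above the next in both libraries. Together the members held 0.825% and 0.912% of all TPM in the LacZ libraries, 0.840% and 0.768% with sg1 and 0.705% and 0.762% with sg5. MPO alone made up between 81.1% and 86.5% of that sum.

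**Figure D1:**
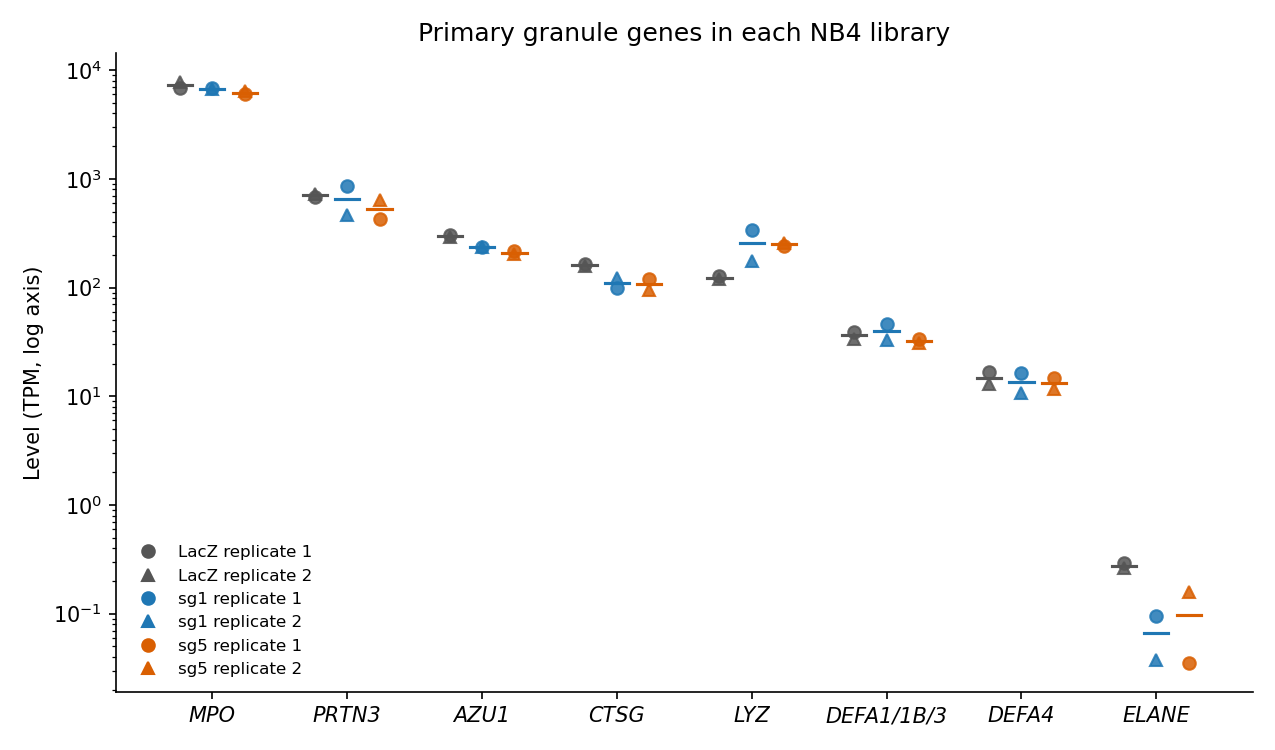
TPM on a log axis for each primary granule feature, with a point for each library (circles replicate 1, triangles replicate 2) and a line at the mean of each group of 2. MPO lies near the top in all groups, ELANE stays under 0.3 TPM, and LYZ is the only feature whose 4 ARID1A-deficient libraries lie above both LacZ libraries.

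MPO was among the most abundant mRNAs of these cells, at rank 9 to 11 of all genes in every library. It was measured at 6913 and 7769 TPM in the LacZ libraries, 6813 and 6642 with sg1 and 5991 and 6389 with sg5. All 4 ARID1A-deficient libraries lay below both LacZ libraries in TPM, but in CPM sg1 replicate 1 (15410) lay between the LacZ libraries (14820 and 16830), so the groups overlapped on that scale. MPO took up 1.30% to 1.63% of all read counts of a library. Its log2 fold change against LacZ was -0.08 ± 0.14 (SE) for sg1 and -0.18 ± 0.14 in sg5, and the 95% intervals, -0.39 to 0.23 and -0.49 to 0.13, included 0. The transcript MPO-201 held at least 98% of the MPO counts in every library.

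PRTN3, proteinase 3, was the second most abundant member in every library, and its replicates lay far apart in both ARID1A guide groups. Its levels were 684 and 731 TPM in the LacZ libraries, 852 and 463 with sg1 and 429 and 636 with sg5. The libraries set apart on that component, sg1 replicate 1 and sg5 replicate 2, had the higher PRTN3 of their groups, by 1.88-fold in sg1 and 1.54-fold in sg5 in CPM, against 1.09-fold between the LacZ libraries. The part of that library difference in the PRTN3 values was not tested. The log2 fold changes, -0.06 ± 0.32 in sg1 and -0.36 ± 0.32 in sg5 (SE), were within the spread, and their intervals reached from -0.81 to 0.69 and from -1.11 to 0.39. Without sg1 replicate 2 the sg1 value was 0.33, and without sg1 replicate 1 it was -0.59, so its direction rested on 1 library.

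AZU1, azurocidin, was lower in every ARID1A-deficient library than in both LacZ libraries, with almost no spread within groups. It was measured at 302 and 292 TPM in the LacZ libraries, 234 and 237 with sg1 and 216 and 203 with sg5. In CPM the values were 217 and 215, then 177 and 180, then 160 and 162, so replicates lay within 1.02-fold of each other in each group. The log2 fold change was -0.28 ± 0.11 in sg1 and -0.43 ± 0.11 in sg5 (SE). The unadjusted p-values of edgeR's quasi-likelihood test were 0.0277 and 0.00325, and after Benjamini-Hochberg adjustment over all genes they were 0.993 and 0.418, so neither passed the threshold of 0.1. AZU1 was made of 2 transcripts in these estimates, AZU1-201 with 57.8% to 64.8% of the counts and AZU1-202, which starts further upstream, with 35.2% to 42.2%. The lowest AZU1-201 share, 57.8%, was that of sg5 replicate 2, and the groups overlapped in this share.

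CTSG, cathepsin G, showed the same separation with a larger difference. Its levels were 164 and 158 TPM in the LacZ libraries, 99.8 and 122 with sg1 and 119 and 94.6 with sg5, so the lowest LacZ library lay above the highest ARID1A-deficient library. The log2 fold change was -0.50 ± 0.14 in sg1 and -0.54 ± 0.14 in sg5 (SE), which corresponds to 0.707 and 0.686 of the LacZ level. The unadjusted p-values were 0.00565 and 0.00357 and the adjusted p-values of edgeR were 0.686 and 0.426. Within each guide, CTSG was lower in the library set apart on that component, the opposite of PRTN3, and whether that library difference contributes was not tested.

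LYZ, lysozyme, was the one member with higher levels in the ARID1A-deficient libraries. Lysozyme is stored in later granules as well as in the primary ones and is also made by monocytes. It was measured at 126 and 120 TPM in the LacZ libraries, 339 and 175 with sg1 and 243 and 257 with sg5, and all 4 ARID1A-deficient libraries lay above both LacZ libraries. The log2 fold change was 1.09 ± 0.29 in sg1 and 1.03 ± 0.29 in sg5 (SE), or 2.13-fold and 2.05-fold. The unadjusted p-values were 0.00694 and 0.00893, and the adjusted p-values of edgeR, 0.743 and 0.521, did not pass. In sg1 the size rested on replicate 1: without it the log2 fold change was 0.49, and without replicate 2 it was 1.52. LYZ moved from the fifth place among the members in both LacZ libraries to the third in 3 of the ARID1A-deficient libraries and the fourth in sg1 replicate 2, and the ratio of LYZ to CTSG in TPM was 0.771 and 0.757 in the LacZ libraries, 3.40 and 1.44 with sg1 and 2.04 and 2.72 with sg5.

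The defensins were low and did not separate. The DEFA1/1B/3 sum, which stands for human neutrophil peptides 1 to 3, was measured at 39.4 and 34.0 TPM in the LacZ libraries, 46.03 and 33.0 with sg1 and 33.4 and 30.9 with sg5. Its log2 fold change was 0.18 ± 0.20 in sg1 and -0.12 ± 0.21 in sg5 (SE), with intervals from -0.29 to 0.64 and from -0.58 to 0.35. DEFA4, which encodes human neutrophil peptide 4, was measured at 16.7 and 13.0 TPM in the LacZ libraries, 16.3 and 10.6 with sg1 and 14.7 and 11.7 with sg5, with log2 fold changes of -0.09 ± 0.27 and -0.12 ± 0.27 (SE). The groups overlapped for both features.

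ELANE, neutrophil elastase, was near absent although its neighbours on chromosome 19 were among the abundant genes. The libraries held 9 and 8 estimated counts of ELANE in the LacZ libraries, 3 and 1 with sg1 and 1 and 5 with sg5, which is 0.290 and 0.265 TPM, then 0.0959 and 0.0372, then 0.0353 and 0.158. PRTN3, which ends 2838 bases upstream, was between 2361 and 12440 times higher in TPM in the same libraries. ELANE therefore did not pass the filter on low counts and was not part of the main test. The ARID1A-deficient libraries lay below both LacZ libraries, and in a fit without the filter the log2 fold change was -1.92 ± 1.13 in sg1 and -1.40 ± 1.07 in sg5 (SE, adjusted p = 0.991 and 0.928 by edgeR), so no difference was detectable at this depth. No 31-base word of its transcripts occurs in the transcripts of another gene of the tables.

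**Figure D2:**
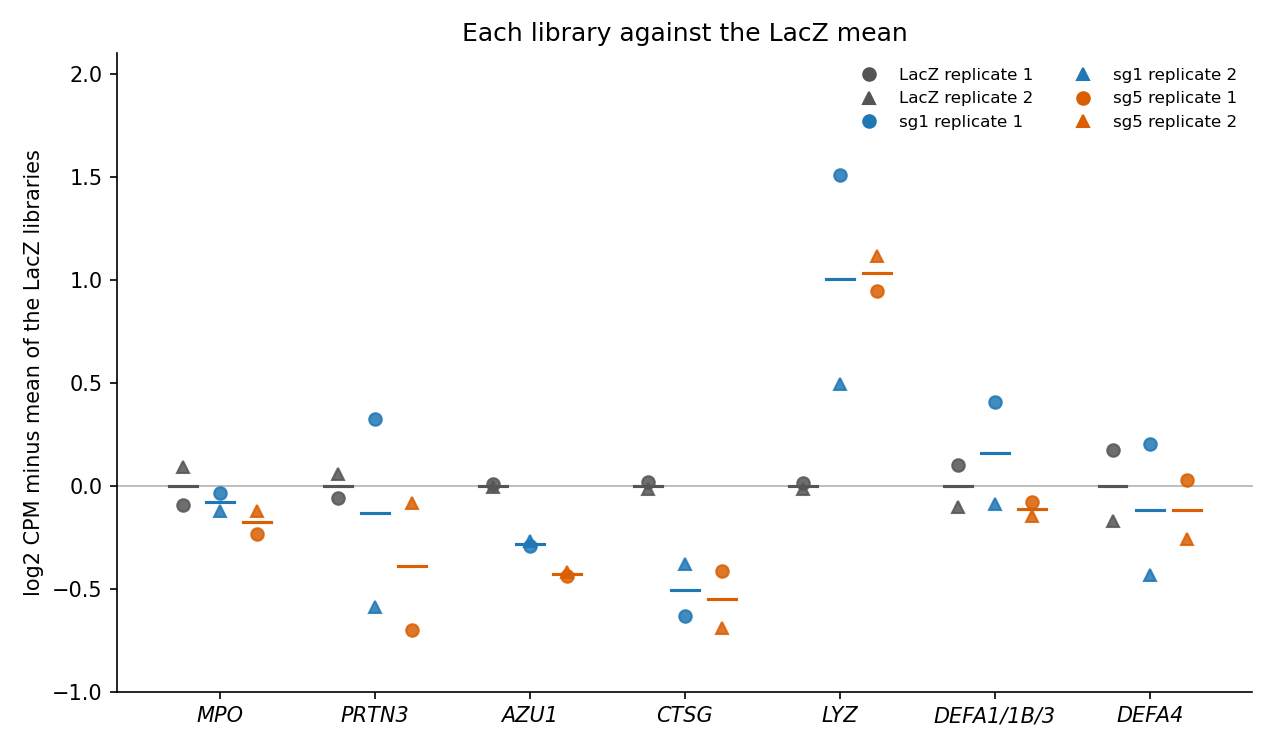
Difference in log2 CPM of each library from the mean of the LacZ libraries for the 7 tested features, with circles for replicate 1, triangles for replicate 2 and a line at each group mean. AZU1 and CTSG lie below 0 and LYZ above 0 in all 4 ARID1A-deficient libraries, while PRTN3 spreads from -0.70 to 0.33.

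None of the 7 tested members passed the threshold of FDR under 0.1 in edgeR for sg1 against LacZ (0 of 7, against 0.0378% of all genes, 7 genes), for sg5 against LacZ (0 of 7, against 0.0972%, 18 genes) or for the mean of the ARID1A guides against LacZ (0 of 7, against 0.167%, 31 genes). At an unadjusted p under 0.05 the members AZU1, CTSG and LYZ passed in each of these comparisons, that is 3 of 7, against 4.15% of all genes for sg1, 7.48% for sg5 and 7.21% for their mean. The comparisons share the LacZ libraries, so they are not independent of each other. The same 3 members were those with all 4 ARID1A-deficient libraries on one side of both LacZ libraries in CPM (3 of 7), which held for 20.1% of all genes tested. The median log2 fold change of the 7 features was -0.08 in sg1, -0.18 in sg5 and -0.13 for their mean, beside medians over all genes of 0.00, -0.01 and -0.01.

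Other calls came from DESeq2, which was given 52990 features, with its own scaling and without the low-count filter used for edgeR. DESeq2 applied its own filter on mean counts before the adjustment, which left ELANE without an adjusted p in the comparisons with LacZ. Its adjustment therefore did not cover all of these features. Which of these differences changed the calls was not tested. DESeq2 called LYZ in sg1 (adjusted p = 0.0130) and LYZ, AZU1 and CTSG in sg5 (0.0158, 0.0683 and 0.0865) and for the mean of the guides (7.72e-04, 0.0776 and 0.0226), while it called 100, 187 and 229 genes in all. The directions and sizes were close to those of edgeR, for instance 1.10 and 1.05 for LYZ on the log2 scale.

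**Figure D3:**
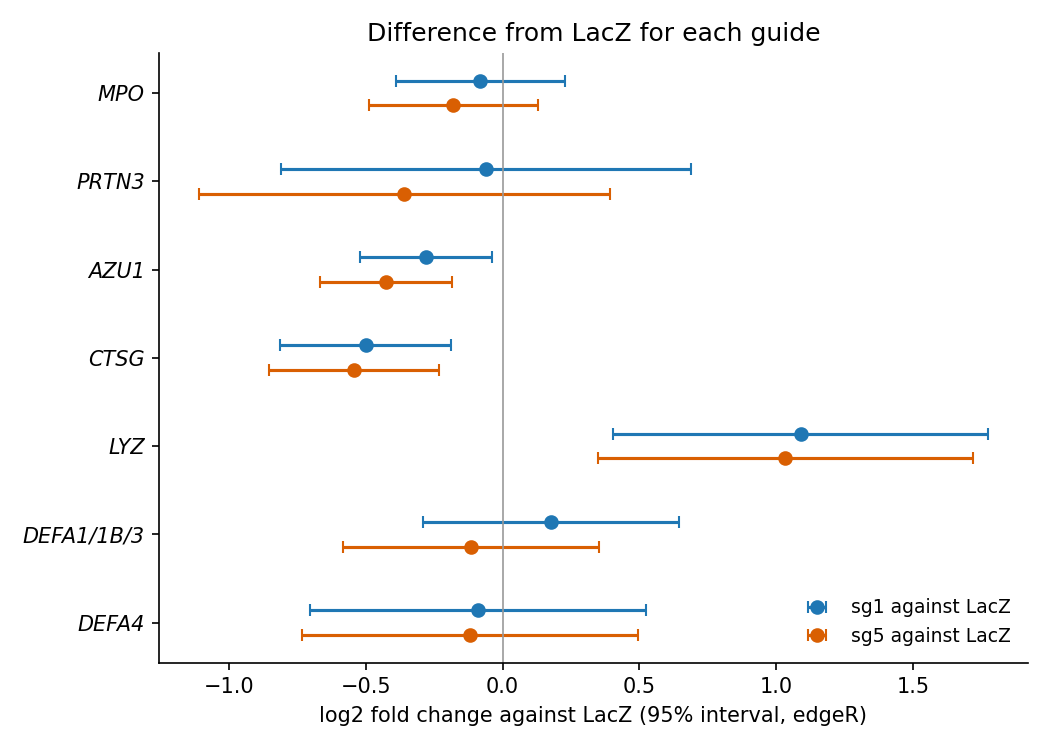
Log2 fold change of sg1 (blue) and sg5 (orange) against LacZ for the 7 tested features, with 95% intervals from edgeR before any adjustment for the number of genes. The intervals of AZU1, CTSG and LYZ leave out 0 for both guides and those of the other features include it.

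Between the guides, 0 of 7 members passed FDR under 0.1 in edgeR, against 0.0054% of all genes (1 gene), and 0 of 7 had an unadjusted p under 0.05. The difference of sg1 from sg5 in LYZ was 0.06 on the log2 scale with an interval from -0.62 to 0.73, in CTSG 0.04 (-0.27 to 0.35) and in AZU1 0.15 (-0.09 to 0.39). The intervals for LYZ and PRTN3 (0.30, from -0.45 to 1.05) were too wide to show that the guides act alike.

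The profile of each tested feature over the 6 libraries had 71 to 3092 genes nearer to it than any other member. For each feature the gene with the nearest profile was sought among 9039 genes of at least 10 CPM, as the smallest distance between log2 CPM centred on each gene's mean, a description over 6 libraries. It was ATP13A1 for MPO (distance 0.03), IGFBP4 for PRTN3 (0.35), ATP13A2 for AZU1 (0.08), SLC27A3 for CTSG (0.12), STS for LYZ (0.38), OLIG2 for the DEFA1/1B/3 sum (0.17) and SUCNR1 for DEFA4 (0.17). STS, the nearest to LYZ, was measured at 2.25 and 1.79 TPM in the LacZ libraries, 4.58 and 3.21 with sg1 and 3.77 and 4.27 with sg5. The nearest pair of members was AZU1 and MPO by distance (0.32). The MPO profile lay only 0.24 from a flat profile, so it was nearer to a flat profile than to AZU1. The fewest genes came between for DEFA4, whose nearest member was the DEFA1/1B/3 sum (0.38, with 71 genes nearer). The nearest other member was DEFA4 for that sum (437 genes nearer), AZU1 for MPO (2455 genes nearer), the defensin sum for PRTN3 (0.69, with 666 genes nearer), AZU1 for CTSG (distance 0.35, with 146 genes nearer), MPO for AZU1 (426 genes nearer) and the defensin sum for LYZ (1.26, with 3092 genes nearer).

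How far the reads of a member could be assigned without doubt was read from 31-base words of its transcripts. CTSG, PRTN3, ELANE, DEFA4 and the transcript AZU1-201 shared 0 words with other genes of the tables, and MPO shared 25 of 3579 with EPX, the eosinophil peroxidase. AZU1-202, with 35.2% to 42.2% of the AZU1 counts, shared 183 of 1683 words with other genes, so part of its reads depended on the estimation. LYZ-201, which held at least 96% of the LYZ counts, shared 690 of 1500 words with transcripts of other genes, so part of its reads depended on the estimation. The antisense gene AC020656.1 that overlaps LYZ was listed at 0 counts in the mean of the libraries. DEFA1 and DEFA1B shared all of their words with other defensin genes. The estimation gave DEFA1B 0 counts in both LacZ libraries and in sg1 replicate 1 and 161, 54 and 159 counts in the other libraries, while the sum kept within 8.23 to 12.1 CPM, and separate values of these copies are therefore uncertain.

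The wider granule programme was described through lists of related genes, chosen like the members with earlier results of these data known. In the list of other azurophil cargo and membrane partners, 17 of 17 genes were tested and 0 passed FDR under 0.1 in sg1, sg5 or their mean. The median log2 fold change was 0.10 for the mean of the guides. In CPM 5 of the 17 lay above both LacZ libraries in every ARID1A-deficient library and 2 lay below. Of all genes tested, 20.1% separated in either direction. PRAM1, 1 of those below and named after its values were seen, had a log2 fold change of -0.55 for the mean of the guides that did not pass. SRGN, serglycin, the proteoglycan that packs granule proteins, was measured at 2156 and 1792 TPM in the LacZ libraries, 2672 and 1615 with sg1 and 1813 and 2661 with sg5. It was again higher in the libraries that stood apart, with log2 fold changes of 0.16 and 0.23 that did not pass. RNASE2, the eosinophil-derived neurotoxin, was measured at 487 and 412 TPM in the LacZ libraries, 817 and 570 with sg1 and 589 and 781 with sg5, with log2 fold changes of 0.68 and 0.67 (adjusted p = 0.868 and 0.550 by edgeR).

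Among activators and inhibitors of granule proteases, 1 of 10 tested genes passed FDR under 0.1 as higher for sg5 and for the mean of the guides. As lower 0 passed, and 0 passed for sg1. In CPM 1 of the 10 lay above both LacZ libraries in every ARID1A-deficient library and 2 lay below. Of all genes tested, 20.1% separated in either direction. CST7, named after its values were seen, was measured at 333 and 345 TPM in the LacZ libraries, 239 and 303 with sg1 and 233 and 251 with sg5. Its log2 fold change for the mean of the guides, -0.36, did not pass. SLPI, the secretory leukocyte protease inhibitor that blocks elastase and cathepsin G, was measured at 53.8 and 50.3 TPM in the LacZ libraries, 171 and 110 with sg1 and 130 and 143 with sg5, and every ARID1A-deficient library exceeded both LacZ libraries. Its log2 fold change was 1.49 in sg1 (adjusted p = 0.103 by edgeR, which missed the threshold), 1.45 in sg5 (0.0772) and 1.47 for the mean of the guides (0.0479). CTSC, the dipeptidyl peptidase that activates the serine proteases, was measured at 283 and 271 TPM in the LacZ libraries, 318 and 251 with sg1 and 283 and 330 with sg5, with log2 fold changes of 0.08 and 0.16 that did not pass. BSG, the most abundant gene of the list, lay between 456 and 533 TPM in all 6 libraries.

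The machinery behind MPO and the granule itself showed no gene past the threshold. This held for 21 lysosomal hydrolases that share the granule (median log2 fold change for the mean of the guides 0.00), 8 genes of heme synthesis (-0.01), 5 endoplasmic reticulum chaperones of MPO folding (0.11) and 16 genes of granule sorting (-0.02). Among them, at an unadjusted p under 0.05, 1 sorting gene was higher for the mean of the guides and 0 genes of the other 3 lists differed. CTSH was the most abundant hydrolase, at 306 and 259 TPM in LacZ and between 215 and 249 in the other libraries, and PSAP lay between 211 and 270 TPM in all 6. The heme genes ALAS1, at 93.0 to 111 TPM, and UROS at 77.5 to 83.8 TPM, did not pass. CALR, calreticulin, was measured at 1541 and 1732 TPM in the LacZ libraries, 2034 and 1389 with sg1 and 1348 and 2116 with sg5, and HSP90B1 at 480 and 479, then 571 and 458, then 444 and 690, both higher in the libraries that stood apart. M6PR lay between 139 and 156 TPM and HPS1 between 83.3 and 96.7 TPM.

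The transcription factors known for these genes had 15 of 16 members tested and 0 past the threshold, with a median of -0.08 for the mean of the guides. SPI1, which encodes PU.1, was measured at 233 and 225 TPM in the LacZ libraries, 255 and 213 with sg1 and 206 and 209 with sg5. MYB was measured at 194 and 168 TPM in the LacZ libraries, 167 and 182 with sg1 and 189 and 172 with sg5. At an unadjusted p under 0.05, 4 of the 15 were lower and 0 higher in sg5, where 7.48% of all genes tested had such a p in either direction, and 1 was lower and 0 higher in sg1, against 4.15%. In CPM 3 of the 15, GFI1, CEBPB and CEBPG, lay below both LacZ libraries in all 4 ARID1A-deficient libraries and 0 lay above, beside 20.1% of all genes that separated in either direction. These 3 were named after their values were seen. GFI1, a transcriptional repressor needed for neutrophil development, was measured at 99.2 and 116 TPM in the LacZ libraries, 78.6 and 87.4 with sg1 and 77.4 and 64.8 with sg5, and its log2 fold change for the mean of the guides was -0.43. CEBPB was measured at 54.8 and 66.9 TPM in the LacZ libraries, 34.7 and 45.5 with sg1 and 41.3 and 16.8 with sg5, and CEBPG at 27.6 to 28.6 TPM in LacZ and 19.3 to 27.4 TPM in the other libraries.

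Of the tested genes listed as genomic neighbours of the members, EPX alone passed the threshold. Among the neighbours of the chromosome 19 cluster, 14 of 16 were tested and 0 passed, with PTBP1 at 295 to 358 TPM and PRSS57, a further serine protease of the granule, at 117 to 155 TPM. Of the genes around MPO, 1 of 7 tested fell: EPX was measured at 3.17 and 2.96 TPM in the LacZ libraries, 0.857 and 1.05 with sg1 and 0.803 and 0.625 with sg5, with log2 fold changes of -1.65 (adjusted p = 0.143 by edgeR), -2.06 (0.0370) and -1.86 for the mean (0.0181). Its list neighbours SUPT4H1, at 85.9 to 104 TPM, and MTMR4, at 23.9 to 30.9 TPM, did not pass. The 4 genes beside CTSG, among them CMA1 and STXBP6, stayed under 0.2 TPM in every library, and of the genes around LYZ 0 of 7 tested passed, with CCT2 at 253 to 355 TPM and CPSF6 at 68.2 to 89.2 TPM.

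**Figure D4:**
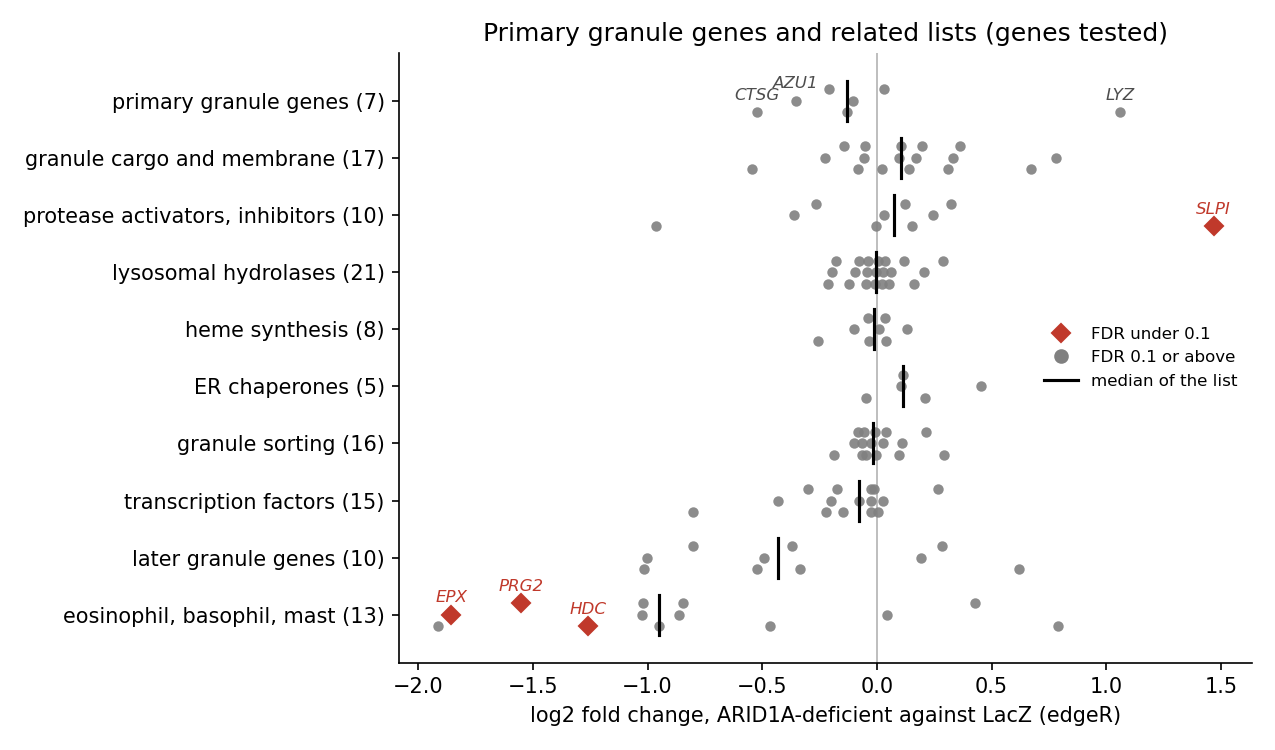
Log2 fold change of the mean of the ARID1A guides against LacZ for each tested gene of the primary granule features and 9 related lists, with the number of genes tested in parentheses, red diamonds for FDR under 0.1 in edgeR and a black line at the median of each list. SLPI lies at 1.47 and the eosinophil, basophil and mast cell genes EPX, PRG2 and HDC lie between -1.86 and -1.26, while the lysosomal, heme and sorting lists lie close to 0.

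Genes of the later granules and of other lineages were listed as well. Of 16 genes of secondary and tertiary granules, 10 were tested and 0 passed, and LTF, CAMP, LCN2, CRISP3, OLFM4 and ARG1 were under 1 TPM in every library. In CPM 4 of the 10, QSOX1 among them, lay below both LacZ libraries in every ARID1A-deficient library. Above them lay 2, FCN1 among them, beside 20.1% of all genes that separated in either direction. QSOX1 was measured at 85.6 and 85.5 TPM in the LacZ libraries and 56.6 to 69.7 in the others. FCN1 lay between 41.2 and 58.3 TPM. CYBB, at 55.1 to 103 TPM, overlapped between the groups in CPM. At an unadjusted p under 0.05, 2 of the 10 were higher and 3 lower for the mean of the guides, against 7.21% of all genes tested in either direction. MMP9, gelatinase B, was measured at 265 and 206 TPM in the LacZ libraries, 158 and 104 with sg1 and 111 and 84.8 with sg5, with log2 fold changes of -0.80 and -1.23 (adjusted p = 0.686 and 0.223 by edgeR). CHI3L1 was measured at 103 and 87.5 TPM in the LacZ libraries, 158 and 142 with sg1 and 128 and 140 with sg5, with log2 fold changes of 0.69 and 0.55 that did not pass.

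Most tested markers of eosinophils, basophils and mast cells were lower in the ARID1A-deficient libraries, and their part in the values of the primary granule genes was not tested. Of 18 such genes 13 were tested. EPX, PRG2 and HDC passed FDR under 0.1 as lower for the mean of the guides, and 0 passed as higher. In CPM 10 of the 13 lay below both LacZ libraries in every ARID1A-deficient library. Above them lay 1, ALOX15 (log2 fold change 0.79 for the mean of the guides), named after its values were seen. Of all genes tested, 20.1% separated in either direction. PRG2, the eosinophil major basic protein, was measured at 65.3 and 73.5 TPM in the LacZ libraries, 25.9 and 21.3 with sg1 and 23.7 and 21.6 with sg5, and its log2 fold changes were -1.53 and -1.58 (adjusted p = 0.0321 and 0.0249 by edgeR). HDC, histidine decarboxylase, was measured at 17.7 and 17.7 TPM in the LacZ libraries, 7.84 and 7.87 with sg1 and 6.17 and 7.30 with sg5, with log2 fold changes of -1.22 and -1.30 (0.0883 and 0.0370). RNASE3 lay between 23.2 and 33.2 TPM in all libraries. The summed level of the list was 147 and 148 TPM in LacZ, 72.5 to 86.5 in sg1 and 72.0 to 77.3 in sg5. That sum leaves out RNASE2, the eosinophil-derived neurotoxin, which was listed with the azurophil cargo. RNASE2 was higher in every ARID1A-deficient library (log2 fold change 0.67 for the mean of the guides). FCER1A was listed at 0 in all 6 libraries.

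Markers of monocytes had 8 of 10 genes tested and 0 past the threshold. S100A9 was measured at 26.9 and 26.2 TPM in the LacZ libraries, 121 and 57.1 with sg1 and 63.7 and 65.6 with sg5, the same side as LYZ in every library, with log2 fold changes of 1.80 and 1.35 (adjusted p = 0.298 and 0.413 by edgeR). FCGR1A lay between 24.5 and 40.1 TPM and did not separate, VCAN stayed under 0.1 TPM and FCGR3A was listed at 0 in all libraries. The summed level of the list was 80.1 to 98.0 TPM in LacZ, 107 to 196 in sg1 and 127 to 128.5 in sg5, so it moved with LYZ, and its part in the LYZ values was not tested. Of 8 lymphocyte markers 5 were tested and 0 passed, with CD79B at 26.7 to 36.2 TPM and CD3D at 12.2 to 19.1 TPM. Their summed level was 60.6 to 68.1 TPM in LacZ, 70.6 to 80.0 in sg1 and 70.9 to 75.3 in sg5, so it was higher in all 4 ARID1A-deficient libraries, as LYZ was, and its part in the members' values was not tested. CD79A, a B cell receptor chain named after its values were seen, was measured at 9.54 and 6.74 TPM in the LacZ libraries, 15.4 and 15.5 with sg1 and 12.4 and 14.5 with sg5, with a log2 fold change of 0.87 for the mean of the guides that did not pass, while CD3E, CD2 and MS4A1 stayed under 0.3 TPM. Of 11 erythroid and megakaryocyte markers 2 were tested. ITGA2B, the platelet integrin chain, fell from 9.26 and 8.40 TPM in LacZ to 1.77 and 2.07 in sg1 and 2.13 and 1.82 in sg5 (log2 fold change -2.11 and -2.10, adjusted p = 0.0321 and 0.0257 by edgeR), GP1BA lay between 0.762 and 1.24 TPM, and HBB and HBA1 were listed at 0.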

How the data were processed

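RNA-seq was measured in 6 NB-4 libraries, grouped by their labels. The authors ran kallisto and deposited, for each transcript, estimated counts, effective lengths and TPM; per the labels the processing also names DESeq2 and hg19, and kallisto's version is not given in the sources used here. Transcripts were matched to GENCODE 29 (GRCh38), which took in 92.6% of 196354, and values were summed per gene, with DEFA1, DEFA1B and DEFA3 as one sum. Rounded counts were tested with edgeR 4.0.16 (R 4.3.3): TMM scaling, the filterByExpr minimum count set to 10, a robust quasi-likelihood fit over all 6 libraries, Benjamini-Hochberg adjustment over 18512 genes and a threshold of 0.1. CPM values carry the TMM factors, and intervals are 95%. The edgeR and DESeq2 fits were run on simulated counts with known changes. The simulated spread between replicates was set below the common estimate from these libraries, so that run does not check the calls made here. DESeq2 1.42.0, limma 3.58.1 on log2(TPM + 1), other factors, filters, offsets from the effective lengths, and left-out libraries were alternatives. Genes named are the members, ARID1A and the nearest profile to each feature. From each list they are every gene past the threshold and the 2 most abundant. Further list genes, near 0 or not, were named after their values were seen. The members and lists were chosen with earlier results of these data known. Protein sequences were not analysed here. Promoters came from RefSeq (GRCh38.p14), which matched PRTN3, AZU1 and CTSG.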

Additional observations from a re-analysis of the deposited data

Results flagged for a closer look

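Over 41 named genes, the CPM of the 4 ARID1A-deficient libraries was searched for a library far from the other 3, which chance alone gives in about 1 in 20 genes. For the DEFA1/1B/3 sum, the gap of sg1 replicate 1 to its nearest neighbour was 0.901 of the whole range, since its 12.1 CPM stood against 8.23 to 8.61 in the other 3 libraries. For HDC the gap of sg5 replicate 1 was 0.864 of the range, and for S100A9 that of sg1 replicate 1 was 0.840. LYZ, AZU1, CTSG, PRTN3, MPO and DEFA4 had no library this far from the others.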

How the results depend on the processing

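Against LacZ, AZU1, CTSG and LYZ kept their direction under all 16 alternatives for sg1 and for sg5. They did so under all 15 for the mean of the guides. Their calls differed between these alternatives, which changed the tool, the filter or the libraries used, among other settings. LYZ passed FDR under 0.1 under 4, 6 and 5 of these, CTSG under 2, 4 and 5, AZU1 under 0, 2 and 2, and PRTN3 under 1 in each. The range of the log2 fold change was 0.49 to 1.52, 0.94 to 1.13 and 0.72 to 1.28 for LYZ, -0.62 to -0.38, -0.67 to -0.41 and -0.59 to -0.40 for CTSG, and -0.33 to -0.27, -0.50 to -0.40 and -0.42 to -0.34 for AZU1, with adjusted p from below 0.1 to 1.0 for LYZ and CTSG. The cause of these changes in calls was not tested.

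For sg1, sg5 and the mean of the guides against LacZ, and for sg1 against sg5, edgeR called 0, 0, 0 and 0 members and 7, 18, 31 and 1 genes. DESeq2 called 1, 3 and 3 members against LacZ and 100, 187, 229 and 5 genes. Without the filter on low counts it was 2 members (CTSG and LYZ) in each comparison with LacZ and 343, 632, 700 and 86 genes. With only the groups compared, 18, 28 and, between guides, 0 genes were called, and 1 member (LYZ) in sg5. limma on log2(TPM + 1) called 4, 9, 5 and 2 genes, and length offsets called 2 between the guides. Leaving out 1 library at a time gave 1 to 33, 0 to 78, 3 to 193 and 0 to 8 genes and 0 to 1, 0 to 1, 0 to 1 and 0 to 0 members, namely LYZ without sg1 replicate 2 in sg1, LYZ without either sg1 library in sg5 and for the mean, and CTSG without sg5 replicate 1 for the mean. The 0 in sg5 came without LacZ replicate 2, where 613 genes had an unadjusted p under 0.05, and those between the guides stood beside 166 to 539 such genes. Such a fit assumes that the lone library of a group varies like the others. The members' median ranged from -0.27 to 0.20 for sg1 and from 0.0048 to 0.3111 between the guides under these, the highest without sg1 replicate 2. Without sg1 replicate 1 and sg5 replicate 2 together, where the spread rests on the LacZ pair alone, 433, 823, 845 and 227 genes and 3, 4, 4 and 1 members were called.

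Same-numbered libraries did not deviate together (correlation of deviations 0.07 for LacZ and sg1, 0.01 for LacZ and sg5, -0.21 for sg1 and sg5), so the numbers were not taken as pairs. With the replicate number as a block edgeR called 0 members and 1, 1, 3 and 0 genes, and the LYZ difference between guides was -0.0015. The crossed numbers, an alternative chosen after seeing the data, gave 59, 159, 194 and 2 genes and 0, 1, 1 and 0 members.

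Differences near 0 changed sign. Leaving out 1 library, the sg1 value ranged from -0.17 to 0.0122 for MPO, -0.59 to 0.33 for PRTN3, -0.10 to 0.41 for the DEFA1/1B/3 sum and -0.46 to 0.20 for DEFA4; the sg5 value -0.21 to 0.0013 for the sum and -0.28 to 0.0724 for DEFA4; and the mean of the guides -0.10 to 0.15 for the sum and -0.28 to 0.0828 for DEFA4. Between the guides it ranged -0.25 to 0.68 for PRTN3, -0.0923 to 0.17 for CTSG, -0.56 to 0.47 for LYZ and -0.35 to 0.31 for DEFA4. Without sg1 replicate 1 and sg5 replicate 2 together the sum was -0.0933 in sg1, -0.0888 for the mean and -0.0090 between guides, DEFA4 0.0157 in sg5 and -0.47 between guides, and LYZ -0.45 between guides. With limma the sum was -0.046 for the mean and LYZ -0.0351 between guides, and with crossed numbers LYZ was -0.0009 and DEFA4 -0.0038 between guides. Taken as separate genes, DEFA1 was -0.38 in sg1 and -0.60 for the mean, and DEFA1B, whose LacZ libraries were listed at 0, had fitted values of 9.73 in sg5 and -0.26 between guides that depend on the prior count and are no bound.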
